A study of Mus musculus with 81 samples.

Results

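Adult microglia, the resident macrophages of the brain, were set against the resident macrophages of liver, kidney and skin in mouse microarray data. The microglia were the 3 wild-type samples labelled adult microglia, out of 80 samples in the series, and they came from mice of 6 weeks. They were compared with the mean of 3 other adult wild-type populations, with 3 samples each: Kupffer cells of the liver, kidney macrophages sorted as F4/80high, and Langerhans cells of the epidermis. Each population had equal weight in that mean. Further groups extended the comparison: E14 microglia (3 samples) against E14 Kupffer cells (3 samples) and E14 kidney F4/80high macrophages (2 samples), all wild type, and the same 4 adult populations (3 samples each) from mice labelled Irf8 knockout. Irf8 encodes a transcription factor of myeloid cells. Cells were sorted by FACS, per the series' design text, and RNA was amplified before it was hybridised. Brain cells passed a Percoll gradient, whereas liver, kidney and skin were digested with collagenase, and liver and skin with dispase and DNase as well. Isolation and population therefore cannot be told apart in any comparison between organs. The titles of the wild-type Langerhans samples name GFP and those labelled knockout do not. The labels give no strain, and they do not say which replicates came from separate animals. The p-values therefore measure a spread between samples of a group, pooled over all 27 groups of the series, and not a known spread between animals.

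Microglia settle in the brain during embryonic life and persist there by self-renewal. They depend on the receptor Csf1r, and signals of brain tissue such as TGF-beta maintain their character. Their known traits are a high level of the purinergic receptor P2ry12, the fractalkine receptor Cx3cr1, the transcription factor Sall1 and the surface protein Tmem119, and, at rest, low levels of MHC class II, the molecules that present peptides to helper T cells. Kupffer cells clear blood and recycle iron, and Langerhans cells carry antigen from the skin to lymph nodes.

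Signals are given as deposited log2 values, on which 1 unit is a 2-fold difference, and 17076 of 22180 genes exceeded the floor of 3.041 log2, the 50th percentile of the table, in at least 2 samples and were tested. The microglia label held against its defining markers: Tmem119, P2ry12, Sall1, Siglech and Olfml3 were above all 9 samples of the other populations in all 3 microglia samples. Pearson correlations over all probes lay between 0.964 and 0.969 within microglia, with medians of 0.910 against kidney F4/80high macrophages, 0.856 against Kupffer cells and 0.843 against Langerhans cells. Within Kupffer cells they lay between 0.930 and 0.942. Markers of other cells of each organ moved with the populations. The mean signal of 17 hepatocyte markers was 3.08 to 3.29 in microglia and 8.37 to 8.75 in Kupffer cells, that of 18 tubule markers 2.44 to 2.63 in microglia and 4.56 to 6.69 in kidney F4/80high macrophages, and that of 16 keratinocyte markers 2.57 to 2.61 in microglia and 6.08 to 6.26 in Langerhans cells. The 17 T and NK cell markers averaged 2.84 to 2.90 in microglia, against 4.79 to 6.65 in Kupffer cells, 4.69 to 5.10 in kidney F4/80high macrophages and 3.19 to 3.25 in Langerhans cells. In microglia the mean signals of the neuron, astrocyte and oligodendrocyte lists were 2.56 to 2.69, 3.71 to 3.95 and 2.85 to 2.93. Their part in the results was not tested. In RNA of such pools, fewer cells of a type and less RNA per cell cannot be told apart.

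Microglia replicate 2 stood apart in its neutrophil markers. Its 20 neutrophil markers averaged 6.30, against 3.45 and 4.06 in microglia replicates 1 and 3 and 2.78 to 3.84 in the 9 other samples. Ngp, a neutrophil granule protein, was at 3.62, 9.57 and 6.00 in microglia replicates 1, 2 and 3, and S100a8, a calcium-binding protein of neutrophils, was at 4.83, 11.26 and 8.24. In the list, 9 of 20 genes were higher in microglia and 1 was lower, where 20.5% and 20.7% of all genes tested were. Without replicate 2 the list counts were 3 and 2, where 2971 and 3074 of all 17076 genes were higher and lower. Differences without replicate 2 were 1.91 for Ngp, against 3.49 with it, and 2.53 for S100a8, against 4.10 with it. Csf3r, the G-CSF receptor, was even across the microglia samples at 9.53, 9.50 and 9.59. The 14 monocyte markers averaged 4.04, 4.88 and 3.69 in microglia replicates 1, 2 and 3, so replicate 2 was highest there too. Xist, which marks female cells, was at 2.99, 10.17 and 10.36 in microglia replicates 1, 2 and 3, at 2.71 to 3.88 in Kupffer cells, at 2.58 to 3.57 in kidney F4/80high macrophages and at 9.77 to 10.30 in Langerhans cells. Sex thus differed between the populations and within microglia, and its part in the results was not tested.

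Against the mean of the other populations, 7036 genes differed (41.2% of those tested), 3495 higher in microglia (20.5%) and 3541 lower (20.7%), by limma at a Benjamini-Hochberg adjusted p below 0.05. With arrays centred on their medians the counts were 4175 higher and 2969 lower, and the median difference over all genes was 0.085, against -0.016 as deposited. Of the higher genes 379 differed by more than 2 log2 units and 47 by more than 4, and of the lower genes 482 and 58. In 1557 genes (9.12%) all 3 microglia samples lay above all 9 others, and in 931 (5.45%) all 3 lay below, counts that were 1947 and 690 when each array was centred on its median. Of these genes, 1535 (8.99%) and 907 (5.31%) also passed the test. For 928 of the 1535 genes (60.5%) the next highest population was kidney F4/80high macrophages, for 321 it was Kupffer cells and for 286 Langerhans cells. For the 907 lower genes the next lowest was kidney F4/80high macrophages in 340, Kupffer cells in 332 and Langerhans cells in 235. Set against 1 population at a time, microglia differed in 4294 genes from kidney F4/80high macrophages (25.1%, 1839 higher and 2455 lower), in 6382 from Kupffer cells (37.4%, 3564 higher and 2818 lower) and in 8024 from Langerhans cells (47.0%, 4065 higher and 3959 lower). These 3 comparisons share the microglia samples. With arrays centred on their medians the split against kidney F4/80high macrophages was 2410 higher and 2066 lower, and the median difference over all genes moved to 0.12, against 0.02 as deposited.

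The largest differences in favour of microglia joined genes known as microglial with several that are less familiar. Gm10790, a predicted gene, was at 8.96, 8.55 and 8.73 in microglia, against 1.33 to 2.37 in the 9 other samples, a difference of 7.01 ± 0.25 (SE; adjusted p = 8.17e-34). Nav3, a cytoskeletal protein of the neuron navigator family, was at 9.54, 8.94 and 8.98 in microglia and at 1.84 to 2.81 in the others (6.87 ± 0.18, adjusted p = 1.33e-41). Slc2a5, a fructose transporter, was at 9.28, 9.06 and 9.50, against 2.17 to 3.40 (6.60 ± 0.32). All 3 genes were near or below the floor in each of the other populations and well above it in each microglia sample. Signals below the floor have no order, so no rank among these genes is read from their differences. Upk1b, a tetraspanin first known from bladder epithelium, was at 8.68, 8.74 and 8.44 in microglia, against 1.73 to 2.74 elsewhere. Gpr165, an orphan receptor, differed by 6.42, Siglech, a sialic-acid binding lectin, by 6.18, Ecscr, a membrane protein described in endothelium, by 5.66 and Crybb1, a beta-crystallin, by 5.23. Capn3, a calpain protease, and Csmd3, a large membrane protein with CUB and Sushi domains, differed by 5.25 and 5.28. The transcripts 8030442B05Rik and Gm13293, of unknown function, differed by 6.03 and 5.59. The heat map of the 15 largest differences in each direction shows Fcrls and Olfml3 with intermediate signals in kidney F4/80high macrophages.

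**Figure D1:**
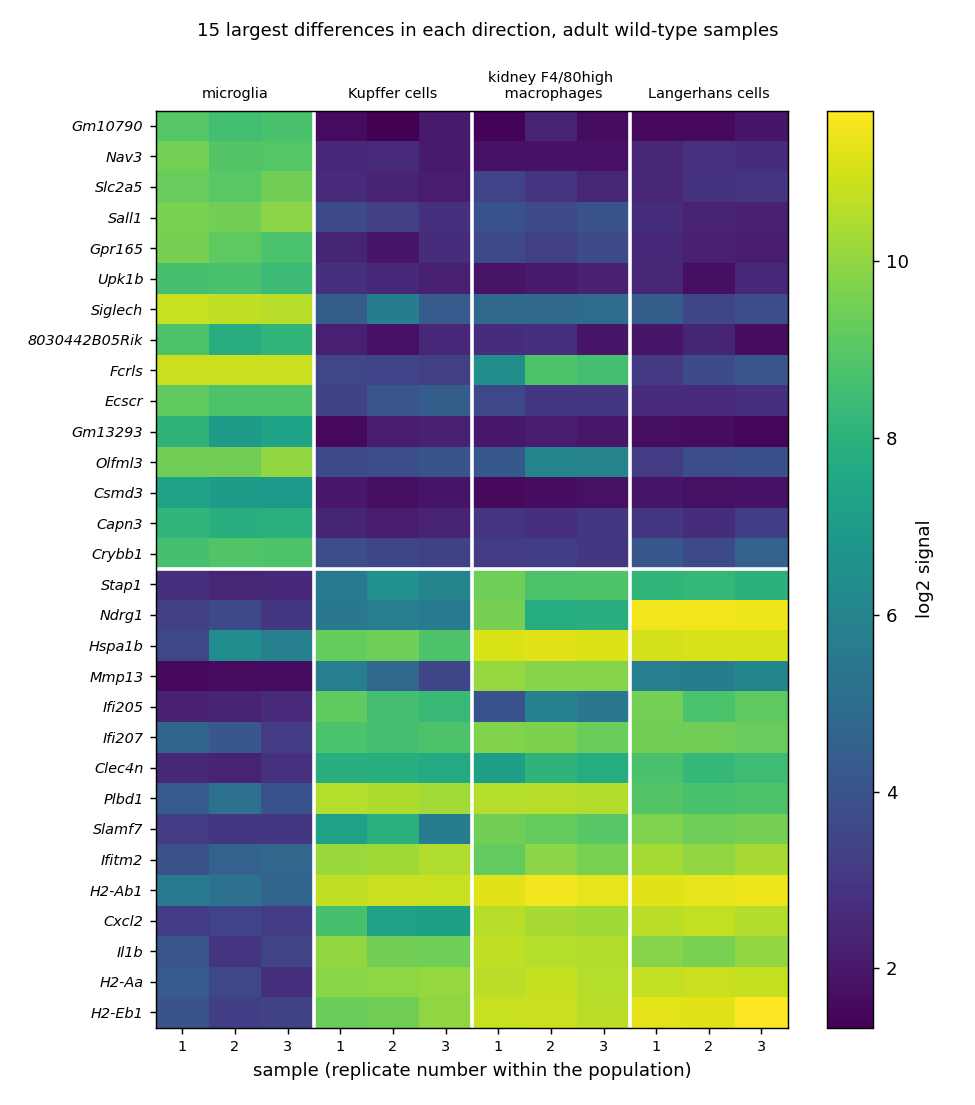
Log2 signal (colour) of the 15 genes with the largest differences in each direction (rows; higher in microglia above the white line, lower below it) in each adult wild-type sample (columns, microglia at the left, 3 samples per population). Microglia samples are bright in the upper block and dark in the lower one, and Fcrls reaches 6.45 to 8.85 in kidney F4/80high macrophages.

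A list of 30 genes known as markers of microglia had 27 members that were tested. Of these, 25 were higher in microglia and 1 lower (20.5% and 20.7% of all genes), with a median difference of 4.47, against -0.02 over all genes tested. In 24 of the 27 all 3 microglia samples lay above all 9 others (9.12% of all genes). P2ry12, an ADP receptor that guides microglial processes to injured cells, was at 11.37, 11.06 and 11.08 in microglia, against 8.998, 8.34 and 8.41 in Kupffer cells, 7.73, 8.81 and 9.03 in kidney F4/80high macrophages and 3.56, 3.52 and 3.47 in Langerhans cells. Its signal was highest in microglia and not confined to them (differences of 2.59, 2.65 and 7.66, with SE 0.38 for each, against the 3 populations in that order). Tmem119, a membrane protein used to tell microglia from other macrophages, was at 8.62, 9.50 and 9.21 in microglia and at 3.48 to 5.39 in the 9 others (4.87 ± 0.22, adjusted p = 8.04e-29). Cx3cr1, the receptor of fractalkine, was at 11.83, 11.77 and 11.78 in microglia, against 6.58 to 8.15 in Kupffer cells, 8.75 to 10.84 in kidney F4/80high macrophages and 4.23 to 5.61 in Langerhans cells. Fcrls, an Fc receptor-like scavenger protein, was nearly the same in the 3 microglia samples (10.89, 10.89 and 10.88) and stood 2.92 above kidney F4/80high macrophages, 7.47 above Kupffer cells and 7.25 above Langerhans cells.

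**Figure D2:**
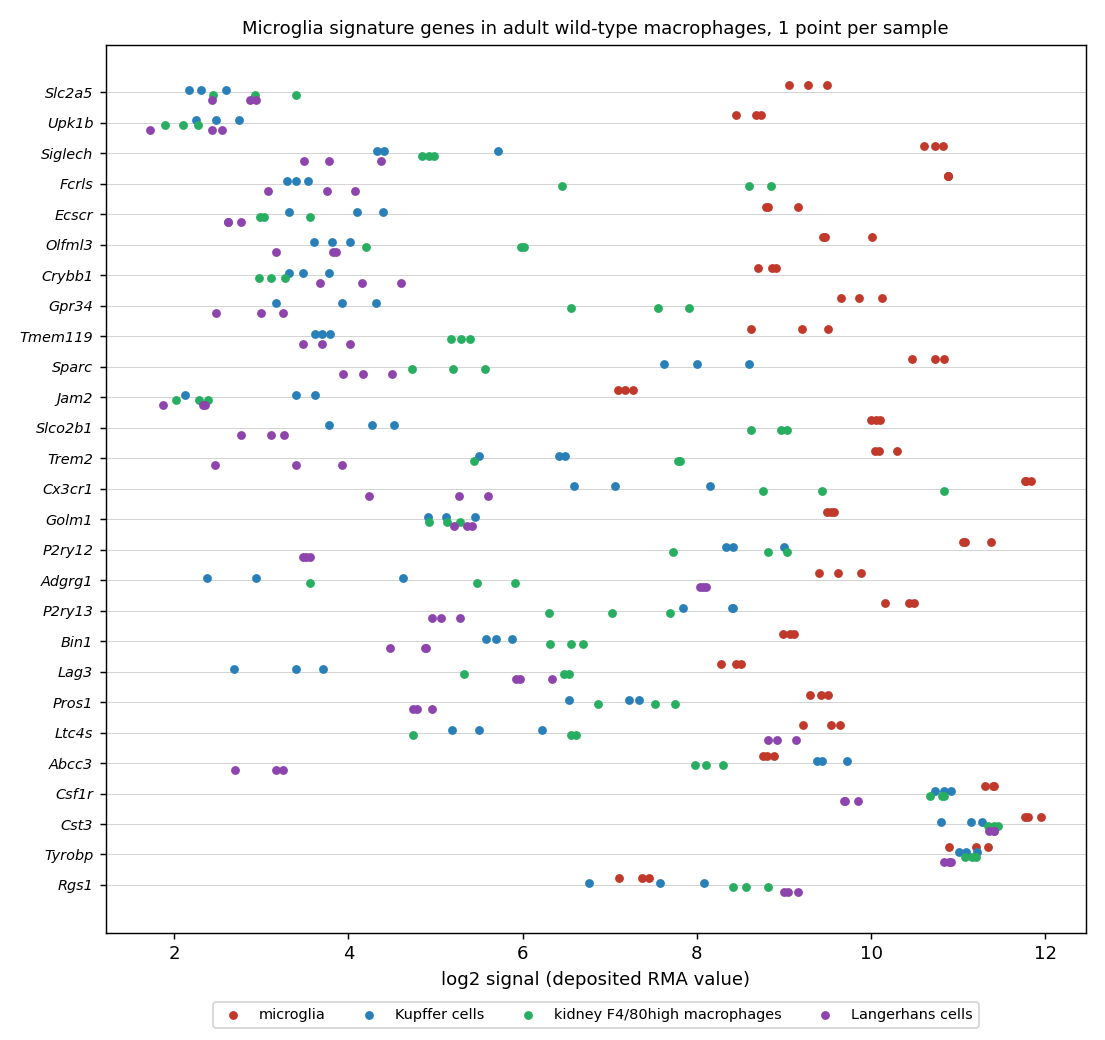
Log2 signal (x axis) of the 27 tested microglia markers (rows, ordered by their difference, largest at the top) with 1 point per adult wild-type sample, microglia uppermost within each row. In 24 rows all 3 microglia points lie right of all others, and the exceptions are Abcc3, Tyrobp and Rgs1.

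The gap to the nearest population varied among the listed genes, and not every gene set microglia apart from every population. Gpr34, a lysophospholipid receptor, was 6.08 above Kupffer cells, 6.97 above Langerhans cells and 2.54 above kidney F4/80high macrophages. Slco2b1, an organic anion transporter, was at 10.003, 10.06 and 10.10 in microglia and at 8.96, 9.04 and 8.63 in kidney F4/80high macrophages, a difference of 1.18. Adgrg1, an adhesion receptor, and Ltc4s, an enzyme of leukotriene synthesis, came nearest in Langerhans cells, where they were 1.56 and 0.51 below microglia. Abcc3, an organic anion pump, was at 8.88, 8.81 and 8.76 in microglia, against 9.72, 9.37 and 9.43 in Kupffer cells. Its difference was 1.92 against the mean and -0.69 against Kupffer cells, so the sign of its comparison depended on the population. Rgs1, a regulator of G protein signals, was lower in microglia, at 7.45, 7.37 and 7.11 (-1.07 ± 0.24, adjusted p = 0.000156). Csf1r, the CSF1 receptor, and Cst3, cystatin C, differed by 0.92 and 0.55, and Tyrobp, the adaptor of Trem2, by 0.10 ± 0.09 without passing the test (adjusted p = 0.368). Trem2 itself, a lipid-sensing receptor, was at 10.09, 10.04 and 10.30 in microglia, against 2.47 to 7.81 elsewhere. Sparc, a secreted matrix protein, Golm1, a Golgi protein, and Jam2, an adhesion molecule, differed by 4.87, 4.34 and 4.69, and Lag3, Bin1 and Pros1 by 3.26, 3.40 and 3.00.

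P2ry12 belongs to a cluster of purinergic receptor genes and their neighbours, of which 6 were tested. P2ry13, a second ADP receptor, was at 10.43, 10.16 and 10.50 in microglia, against 4.95 to 8.42 in the 9 others (3.59 ± 0.23, adjusted p = 5.49e-21). Med12l, in which these receptor genes are embedded, was higher too (2.32 ± 0.18). P2ry14, a receptor of UDP-glucose, was lower, at 2.84, 3.02 and 2.35 in microglia, against 8.44, 8.24 and 8.29 in Langerhans cells and 3.93 to 5.27 in the other two (-3.13 ± 0.28, adjusted p = 8.08e-15). The receptor gene Gpr171 was lower as well (-2.15), and P2ry1 did not pass the test (-0.54 ± 0.25, adjusted p = 0.0804). Members of the cluster thus differed in both directions. Of 12 genes of purine signalling, 7 were higher and 3 lower, where 20.5% and 20.7% of all genes were. Against kidney F4/80high macrophages alone 4 of the 12 were higher and 3 lower.

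The promoter windows of P2ry12 and Fcrls are shown because these genes had high signals in microglia and lower signals in the other macrophages. Each is 300 bases long and spans the RefSeq gene start (GRCm38.p6, minus strand: chr3:59262936-59263235 for P2ry12 and chr3:87263475-87263774 for Fcrls). Capitals mark the ETS core AGGAAGT on either strand, the kind of sequence that PU.1, a factor of all macrophages, can bind.
P2ry12: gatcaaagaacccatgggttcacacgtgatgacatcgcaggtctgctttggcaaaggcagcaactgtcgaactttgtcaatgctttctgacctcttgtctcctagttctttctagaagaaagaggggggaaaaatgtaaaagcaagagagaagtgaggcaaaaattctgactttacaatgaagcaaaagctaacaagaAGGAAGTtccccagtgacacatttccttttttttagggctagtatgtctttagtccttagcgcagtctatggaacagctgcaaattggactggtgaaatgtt
Fcrls: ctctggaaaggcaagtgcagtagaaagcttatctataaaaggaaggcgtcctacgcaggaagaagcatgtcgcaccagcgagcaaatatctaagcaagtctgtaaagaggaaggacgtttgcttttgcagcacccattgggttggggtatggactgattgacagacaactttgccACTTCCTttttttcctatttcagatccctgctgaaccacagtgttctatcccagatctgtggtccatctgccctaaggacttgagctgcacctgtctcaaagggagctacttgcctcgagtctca
Each window held 1 such match, as did 148 of 1563 promoters of the genes above all 9 others and past the test (9.47%), 1538 of 16361 promoters of all genes tested (9.40%) and 3072 of 32851 promoters in the table (9.35%). The PU.1-IRF composite motif, which can overlap the ETS core, was found in 2.72% of all promoters. All motifs given were chosen after the sequences had been seen, and a match is a description of letters.

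Among 28 tested transcription factors of macrophages, 14 were higher in microglia and 11 lower, with a median difference of 0.37 (20.5% and 20.7% of all genes were higher and lower). Without Langerhans cells in the mean 10 were higher and 11 lower (median -0.03), and against kidney F4/80high macrophages alone 7 were higher and 8 lower (median -0.14). Sall1, a zinc finger factor that maintains microglial identity, was at 9.62, 9.49 and 9.90 in microglia, against 3.66, 3.30 and 2.72 in Kupffer cells, 3.94, 3.75 and 3.97 in kidney F4/80high macrophages and 2.67, 2.38 and 2.29 in Langerhans cells (6.48 ± 0.28, adjusted p = 1.01e-29). Its relative Sall3 was at 6.87, 7.11 and 6.33 in microglia, against 1.88 to 3.33 in the 9 others (4.58 ± 0.27). Both genes separated microglia from every other sample. Bhlhe41, a circadian repressor, was 4.54 higher, whereas the related Bhlhe40 was 3.65 lower. Mef2c, a MADS-box factor, was at 9.60, 9.50 and 9.87 in microglia and at 9.30, 9.50 and 9.39 in kidney F4/80high macrophages, and its difference of 3.52 from the mean came from Kupffer and Langerhans cells (3.58 and 6.72, against 0.26 for kidney). Spic, a factor of heme-recycling macrophages, was lower (-3.81), as were Ahr, the aryl hydrocarbon receptor (-3.65), Id3 (-3.27), Pparg (-3.04) and Runx3 (-2.52). Spi1, which encodes PU.1, did not pass the test (-0.19 ± 0.12, adjusted p = 0.222), with 8.68 to 8.87 in microglia and 8.65 to 9.20 in the 9 others.

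TGF-beta signalling is needed for the microglial state. Of 28 tested genes of that pathway 16 were higher and 4 lower (median 0.40), where 20.5% and 20.7% of all genes were. Against kidney F4/80high macrophages alone 12 were higher and 5 lower (10.8% and 14.4% of all genes were). The counts were 14 higher and 6 lower without Langerhans cells in the mean, and 13 higher and 4 lower without microglia replicate 2. The receptor gene Tgfbr1 was at 9.96, 10.09 and 10.25 in microglia, against 9.37, 9.30 and 9.28 in kidney F4/80high macrophages, 6.88 to 7.53 in Kupffer cells and 7.01 to 7.27 in Langerhans cells (2.24 ± 0.14, adjusted p = 7.54e-22). Its partner Tgfbr2 was 1.68 higher against the mean and 0.11 against kidney F4/80high macrophages alone, where the samples overlapped. Itgb5, an integrin subunit that pairs with Itgav to activate TGF-beta, was 3.02 higher, the signal transducer Smad3 1.65, and the inhibitors Smad7 and Ski 1.63 and 1.72. The ligand gene Tgfb1 was 0.64 higher, whereas Tgfb3 and the target gene Tgfbi fell by 0.96 and 1.34.

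The largest differences against microglia were genes of MHC class II. H2-Eb1, a beta chain, was at 3.97, 3.27 and 3.34 in microglia, against 9.39, 9.47 and 9.998 in Kupffer cells, 10.84, 10.86 and 10.64 in kidney F4/80high macrophages and 11.26, 11.22 and 11.71 in Langerhans cells (-7.07 ± 0.27, adjusted p = 7.35e-32). H2-Aa, an alpha chain, was at 4.37, 3.59 and 2.71 in microglia, against 9.85 to 10.87 in the 9 others (-6.91 ± 0.29). H2-Ab1, the beta chain that pairs with it, was at 5.63, 5.24 and 4.70, against 10.70 to 11.54 (-5.99 ± 0.28). The 3 chains thus ranged from near the floor to low signals in microglia and were among the brighter genes elsewhere. Ciita, the master activator of these genes, was at 3.58, 4.19 and 3.71 in microglia, against 5.55 to 7.88 (-3.19 ± 0.27, adjusted p = 1.11e-15). In the list of 11 tested class II genes 7 were lower and 3 were higher, with a median difference of -0.95, and without Langerhans cells in the mean 5 were lower and 3 higher (median -0.49). The higher ones were H2-Oa and H2-Ob (1.08), whose products restrain peptide loading, and Ctss (0.70), the protease cathepsin S. The loading factor H2-DMa was lower (-0.95) and H2-DMb1 did not pass.

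The promoter windows of H2-Eb1 (chr17:34305617-34305916, plus strand) and H2-Aa (chr17:34287774-34288073, minus strand) are shown because both genes had the largest deficits in microglia and share a known element. Capitals mark the Y box CTGATTGG, the part of class II promoters bound by the factor NF-Y.
H2-Eb1: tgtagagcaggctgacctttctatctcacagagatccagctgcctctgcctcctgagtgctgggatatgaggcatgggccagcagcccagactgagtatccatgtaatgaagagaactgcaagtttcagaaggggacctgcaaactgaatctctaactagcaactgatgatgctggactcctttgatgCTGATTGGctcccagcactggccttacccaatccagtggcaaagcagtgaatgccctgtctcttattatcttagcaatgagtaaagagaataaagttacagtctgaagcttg
H2-Aa: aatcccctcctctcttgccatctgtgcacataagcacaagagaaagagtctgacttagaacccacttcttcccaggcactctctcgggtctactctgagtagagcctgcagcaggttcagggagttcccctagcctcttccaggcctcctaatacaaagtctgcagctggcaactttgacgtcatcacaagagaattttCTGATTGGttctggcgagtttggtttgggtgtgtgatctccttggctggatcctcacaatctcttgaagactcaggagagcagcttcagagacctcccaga
Each window held 1 match, whereas 39 of 878 promoters of the genes below all 9 others and past the test held one (4.44%), against 4.87% of the promoters of all genes tested.

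Of 27 inflammatory cytokines and chemokines 16 were lower and 5 higher in microglia than in the mean (20.7% and 20.5% of all genes), with a median difference of -1.84. Against Kupffer cells 16 were lower and 3 higher (16.5% and 20.9% of all genes). The counts were the same against kidney F4/80high macrophages (14.4% and 10.8%). Against Langerhans cells 10 were lower and 9 higher (23.2% and 23.8%, list median -0.05). Without Kupffer cells in the mean 13 were lower and 6 higher (median -0.96), where 3569 and 3303 of all 17076 genes were. Il1b, interleukin 1 beta, was at 4.10, 2.94 and 3.47 in microglia, against 10.02, 9.48 and 9.40 in Kupffer cells, 10.71, 10.55 and 10.52 in kidney F4/80high macrophages and 9.83, 9.61 and 10.004 in Langerhans cells (-6.51 ± 0.24, adjusted p = 1.07e-32). Cxcl2, a neutrophil-attracting chemokine, was at 3.16, 3.43 and 3.15 in microglia, against 8.69, 7.27 and 7.25 in Kupffer cells and 10.22 to 10.77 in the other two (-6.33 ± 0.28). Il1a, by contrast, was 2.22 higher, at 9.17, 9.04 and 9.27 in microglia, with an overlap with Kupffer cells (9.23, 8.52 and 8.32). Il1rn, the IL-1 receptor antagonist, was lower (-2.67). Cxcl9, a T cell-attracting chemokine, was at 3.39, 3.11 and 3.30 in microglia and overlapped with Langerhans cells (2.503 to 3.46), while it was at 8.39 to 10.02 in Kupffer cells and kidney F4/80high macrophages. Ccl12 and Ccl9 were higher (3.15 and 2.17), and Tnf, Ccl22, Pf4 and Il10 were lower (-2.23, -4.55, -4.17 and -3.35).

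The promoter window of Cxcl2 (chr5:90903649-90903948, plus strand) is shown for its known kappaB element, whose match is in capitals (both strands were searched for each motif).
Cxcl2: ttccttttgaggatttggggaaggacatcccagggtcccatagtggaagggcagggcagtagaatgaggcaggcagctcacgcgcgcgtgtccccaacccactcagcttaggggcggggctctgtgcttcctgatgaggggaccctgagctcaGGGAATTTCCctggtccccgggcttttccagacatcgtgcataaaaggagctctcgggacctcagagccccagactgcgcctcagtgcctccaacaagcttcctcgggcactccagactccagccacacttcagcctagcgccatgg
It held 1 match, and 135 of 32851 promoters in the table did (0.411%), with 5 of 878 among the genes below all 9 others and past the test (0.569%).

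None of 25 interferon-stimulated genes was higher in microglia and 20 were lower (20.5% and 20.7% of all genes), with a median difference of -1.86. Without Langerhans cells in the mean none was higher and 24 were lower (median -3.04), and without Kupffer cells 2 were higher and 16 lower (median -1.27). By population, 23 of 25 were lower than in Kupffer cells (16.5% of all genes were) and 23 of 25 lower than in kidney F4/80high macrophages (14.4%), whereas 3 were lower and 11 higher than in Langerhans cells (23.2% and 23.8%). Irf7, a master factor of the interferon response, was at 4.24, 4.72 and 4.55 in microglia, against 9.36, 9.72 and 9.16 in Kupffer cells, 7.62, 8.60 and 7.97 in kidney F4/80high macrophages and 3.22, 4.34 and 4.36 in Langerhans cells. Oas2, an antiviral synthetase, was at 3.33, 4.96 and 4.36 in microglia, against 9.32 to 9.94 in Kupffer and kidney cells and 4.42 to 5.15 in Langerhans cells. Zbp1, a nucleic acid sensor, followed the same order (-4.47 and -4.34 against Kupffer and kidney cells, 0.08 against Langerhans cells). Stat2, a signal transducer of interferon receptors, was below all 9 other samples (-1.86 ± 0.14, adjusted p = 1.32e-17), and so was Ifi205, at 2.27, 2.36 and 2.57. Ifitm2 and Ifi207, interferon-inducible genes among the 15 largest deficits, differed by -5.61 and -5.25.

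Other large deficits fell outside these lists. Slamf7, a receptor of activated leukocytes, was at 3.18, 3.03 and 3.00 in microglia, against 5.71 to 9.71 elsewhere. Clec4n, the fungal lectin receptor Dectin-2, was at 2.52, 2.38 and 2.82, against 7.20 to 8.72. Plbd1, a phospholipase B-like protein, differed by -5.44, and Stap1, a signalling adaptor, by -5.18. Ndrg1, a stress-responsive gene, and Mmp13, a collagenase, varied most among the other populations: Ndrg1 was highest in Langerhans cells (11.46 to 11.50) and Mmp13 in kidney F4/80high macrophages (9.82 to 10.04). Hspa1b, an inducible heat shock protein, was uneven within microglia at 3.57, 6.39 and 5.86, and still below 8.82, the lowest of the 9 others.

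Genes of sterol and lipoprotein metabolism were mostly lower than in the mean. The counts for this list and those for iron and debris handling depended on the population. Of 19 genes of sterol and lipoprotein metabolism 15 were lower and 2 higher (median -1.96), of 18 iron and heme genes 11 were lower and 5 higher (median -0.77), and of 25 scavenger and dead-cell receptors 15 were lower and 8 higher (median -1.55). Over all genes tested, 20.7% were lower and 20.5% higher. Without Kupffer cells in the mean, 11 of the 25 receptors were lower and 9 higher (median -0.25), and 9 of the 18 iron and heme genes were lower and 4 higher (median -0.36). Against Langerhans cells alone 10 receptors were higher and 4 lower, and 6 iron and heme genes were higher and 5 lower. The sterol and lipoprotein list had 12 lower and 4 higher without Kupffer cells (median -1.67). Against Langerhans cells alone it had 9 lower and 5 higher (median -0.52), where 23.2% and 23.8% of all genes were. Apoc1, an apolipoprotein, was at 3.17, 3.41 and 2.99 in microglia, against 11.60, 11.47 and 11.47 in Kupffer cells, 4.29, 5.05 and 5.67 in kidney F4/80high macrophages and 8.34, 8.38 and 8.02 in Langerhans cells (-5.07 ± 0.20, adjusted p = 3.04e-31). Apoe, a known apolipoprotein of microglia, was at 4.73, 4.17 and 3.66 in microglia, against 6.55 to 7.34 in Kupffer and kidney cells and 4.56 to 4.93 in Langerhans cells (-1.92). The fatty acid carrier Fabp5 and the sterol regulator Srebf2 were below all 9 others (-3.98 and -2.20). The cholesterol exporter Abca1 and Mylip, which degrades the LDL receptor, were higher (1.40 and 1.87). Hmox1, which breaks down heme, was at 7.26, 7.70 and 7.45 in microglia, against 11.19, 10.91 and 11.15 in Kupffer cells and 7.64, 7.80 and 8.19 in Langerhans cells. Timd4, a receptor of dying cells, and Cd36, a scavenger receptor of lipids, differed by -5.00 and -4.78, with Timd4 highest in Kupffer cells and Cd36 in kidney F4/80high macrophages. Hepatocyte markers were high in the Kupffer samples, and their part in the apolipoprotein values was not tested.

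Genes shared by macrophages and genes of lysosomes were more often higher than lower against the mean, and their counts depended on the population. Of 14 core macrophage genes 9 were higher and none lower (median 0.77), and of 22 lysosomal genes 15 were higher and 2 lower (median 0.61). Over all genes tested, 20.5% were higher and 20.7% lower. Against Langerhans cells 13 of the 14 core genes were higher, against Kupffer cells 6 were higher and 3 lower, and against kidney F4/80high macrophages 4 were higher and 3 lower. Fcgr1, the high-affinity IgG receptor, shows this: it was at 9.98, 9.83 and 9.83 in microglia, against 9.65, 9.32 and 9.23 in Kupffer cells, 9.26, 9.87 and 9.75 in kidney F4/80high macrophages and 2.62, 2.88 and 3.21 in Langerhans cells. Mertk, a receptor for dying cells, was above all 9 others, with 10.22, 10.07 and 10.07. Ctsd, the protease cathepsin D, was at 11.50, 11.45 and 11.40 in microglia, against 6.99 to 10.91 in the 9 others (2.09 ± 0.11, adjusted p = 1.37e-25). Ctsl and Tpp1, also lysosomal proteases, were 1.53 and 1.11 higher, and Gla, alpha-galactosidase, was lower (-2.19). Against Langerhans cells 17 of the 22 lysosomal genes were higher and 3 lower (23.8% and 23.2% of all genes). Against Kupffer cells 11 were higher and 2 lower (20.9% and 16.5%), and against kidney F4/80high macrophages 5 and 4 (10.8% and 14.4%). When Langerhans cells were left out of the mean, the counts were 5 higher and 3 lower for the core genes and 10 higher and 4 lower for the lysosomal genes.

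Receptors and adhesion molecules went in both directions. Itgam, the CD11b chain of complement receptor 3, was at 10.29, 10.22 and 10.16 in microglia, against 5.31 to 8.36 in the 9 others (3.68 ± 0.20), whereas Itgax, the CD11c chain, was lower (-3.53). Of 25 integrins and adhesion molecules 9 were higher and 11 lower, where 20.5% and 20.7% of all genes were. Of 27 Toll-like and pattern receptors 12 were higher and 7 lower, beside the same shares. Tlr13, Tlr7 and Tlr3, endosomal sensors of RNA, were higher (3.18, 3.07 and 2.96), and the C-type lectins Clec4n and Clec7a were lower (-5.40 and -3.76). Of 19 complement genes 8 were higher and 10 lower (20.5% and 20.7% of all genes). The chains C1qb and C1qc of the first component were 6.08 and 4.87 above Langerhans cells. Their differences did not pass the test against Kupffer cells (0.19, adjusted p = 0.80, and 0.38, adjusted p = 0.488) or kidney F4/80high macrophages (0.21, adjusted p = 0.815, and 0.41, adjusted p = 0.524). The balance of the complement list depended on the population: 3 were higher and 11 lower without Langerhans cells in the mean, and 8 higher and 4 lower without Kupffer cells (median -0.11, against -1.08 with all 3). Without Langerhans cells 7 pattern receptors were higher and 11 lower. In the cell cycle list none of 21 genes was higher and 13 were lower (median -0.62), where 20.5% and 20.7% of all genes were. Against kidney F4/80high macrophages none was higher and 20 were lower (10.8% and 14.4% of all genes). Against Kupffer cells 1 was higher and 4 lower (20.9% and 16.5%), and against Langerhans cells 6 and 5 (23.8% and 23.2%, list median 0.36). Mean signals of the list were 3.87, 4.70 and 5.32 in the microglia samples. They were 6.02 to 6.35 in kidney F4/80high macrophages and 4.55 to 5.24 in Kupffer and Langerhans cells. Mki67, a marker of dividing cells, was at 3.53, 5.11 and 6.14 in microglia, so that the spread within microglia was wide, and Birc5, a mitotic protein, differed by -1.48, and by -0.82 without microglia replicate 1. The bar chart of list counts sets these lists beside all genes tested.

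**Figure D3:**
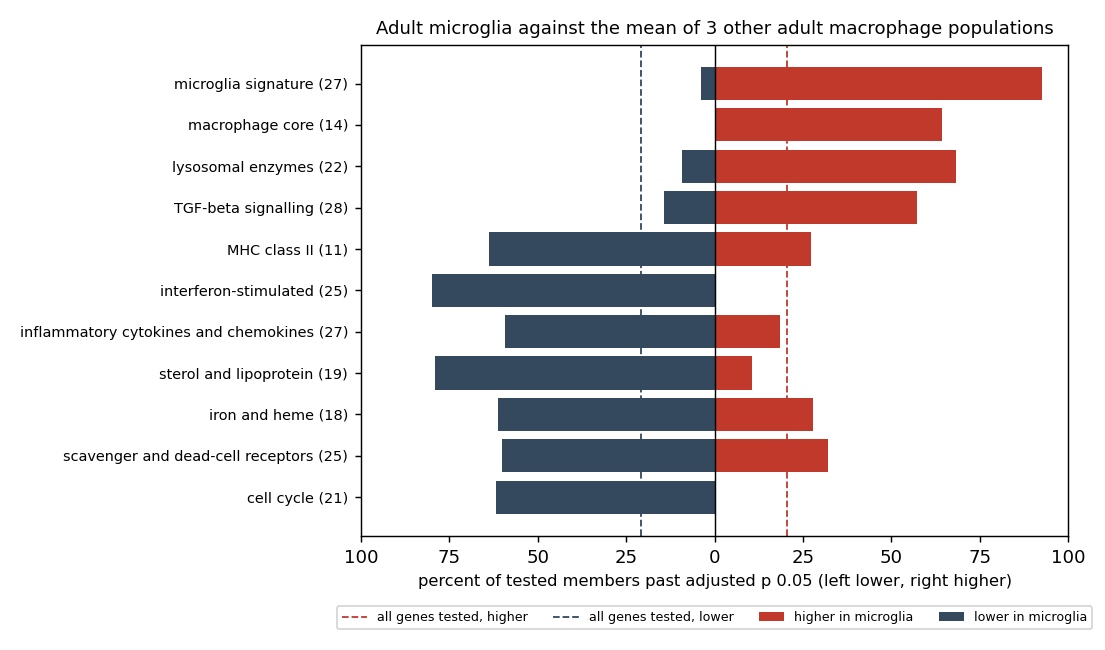
Percent of tested members of 11 gene lists (number tested in brackets) that were higher (bars to the right) or lower (bars to the left) in adult microglia than in the mean of the 3 other adult populations, wild type, by limma at an adjusted p below 0.05. Dashed lines give the shares over all genes tested, 20.5% higher and 20.7% lower.

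Immediate early genes, which respond within minutes to handling, are given because brain was prepared differently from the other organs. Of 24 such genes 13 were higher and 9 lower in microglia than in the mean (20.5% and 20.7% of all genes). When Kupffer cells were left out of the mean 4 were higher and 10 lower. Against Kupffer cells 15 were higher and 4 lower (20.9% and 16.5% of all genes were), against kidney F4/80high macrophages none was higher and 11 were lower (10.8% and 14.4%), and against Langerhans cells 10 were higher and 8 lower (23.8% and 23.2%). Mean signals of the list were 7.66 to 7.84 in microglia, 6.78 to 7.70 in Kupffer cells, 8.97 to 9.28 in kidney F4/80high macrophages and 7.90 to 8.27 in Langerhans cells. Egr1 and Jun were higher in microglia (1.41 and 1.79), and Nr4a1 and Hspa1a lower (-3.88 and -4.46). The part of sample preparation in the cytokine and heat shock values was not tested.

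The comparison was repeated on separate samples, at E14, to see which differences were present before birth. In E14 microglia 2032 genes were higher (11.9%) and 2083 lower (12.2%) than in the mean of E14 Kupffer cells and E14 kidney F4/80high macrophages. Of the 1535 genes that set adult microglia above all 9 others, 875 (57.0%) were higher at E14 and 11 lower, with a median difference of 0.63. Of the 907 genes below all 9 others, 391 (43.1%) were lower at E14 and 10 higher. In adults, against Kupffer and kidney cells alone, 6088 genes differed (35.7%). Across the 17076 genes, these adult differences and those at E14 had a Pearson correlation of 0.60, which describes genes that are not independent replicates. Of the 27 microglia markers 23 were higher at E14 and 1 lower, with a median difference of 2.78.

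Several microglia genes were bright in E14 microglia. Sall1 was at 9.24, 9.46 and 9.19 in E14 microglia, against 2.79 to 3.83 in E14 Kupffer cells and 3.76 and 2.75 in E14 kidney F4/80high macrophages (6.06 ± 0.30, adjusted p = 1.18e-24), and its difference in adults against the same organs was 6.11. Siglech was at 10.18, 10.35 and 10.24 in E14 microglia (5.04), and Fcrls at 10.89, 10.95 and 10.95 (3.56). P2ry12 was at 10.57, 10.41 and 10.24 in E14 microglia, against 7.81, 7.97 and 7.93 in E14 Kupffer cells and 9.17 and 8.78 in E14 kidney F4/80high macrophages (1.97 ± 0.34, adjusted p = 7.09e-06).

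Whether a difference depended on age was tested by the adult difference minus the E14 difference, both against Kupffer and kidney cells. This difference of differences passed the threshold in 2526 genes, 1133 above 0 (6.64%) and 1393 below (8.16%), and the split was 1535 and 1174 with arrays centred on their medians. Upk1b was at 8.68, 8.74 and 8.44 in adult microglia and at 2.66, 2.37 and 2.09 in E14 microglia, and Csmd3 at 7.31, 7.04 and 6.96 in adult microglia and at 2.07, 1.80 and 1.95 in E14 microglia. Both were near or below the floor in E14 microglia, and the differences between the adult and E14 values were 6.06 for Upk1b and 5.02 for Csmd3 (adjusted p = 3.31e-23 and 4.21e-31). Mlph, which links organelles to myosin, was at 7.04, 7.20 and 7.45 in adult microglia and at 2.87, 2.90 and 3.12 in E14 microglia (4.68). The deficits in H2-Ab1, H2-Aa and H2-Eb1 differed between the ages (-7.51, -6.76 and -6.20, adult minus E14). H2-Aa was at 3.01, 2.84 and 2.52 in E14 microglia, against 3.25, 2.52 and 3.00 in E14 Kupffer cells and 2.61 and 2.60 in E14 kidney F4/80high macrophages, so that it was near or below the floor in all 3 populations at E14. Of the 11 class II genes 5 were higher and none lower in E14 microglia (11.9% and 12.2% of all genes). Markers of other cells moved too: 9 of 16 neuron markers were higher in E14 microglia, with list means of 3.35 to 3.63 against 2.76 to 2.82 in E14 Kupffer cells and 2.64 and 2.79 in E14 kidney F4/80high macrophages, and all 6 erythroid markers were lower (3.52 to 3.68, against 7.44 to 7.78 and 4.05 to 4.34). The border macrophage list averaged 5.55, 7.04 and 7.41 in E14 microglia and the neutrophil list 3.60, 5.82 and 6.34, so both were uneven between those samples. None of the 24 immediate early genes was higher and 21 were lower in E14 microglia, with list means of 5.14 to 5.19, against 5.16 to 5.29 in E14 Kupffer cells and 8.55 and 8.49 in E14 kidney F4/80high macrophages. The adult minus E14 difference passed in 14 of these genes above 0 and 1 below. For the T and NK cell markers it passed in 13 of 17, all below 0, with list means of 2.61 to 2.89 in E14 microglia, against 2.85 to 3.09 in E14 Kupffer cells and 2.75 and 2.91 in E14 kidney F4/80high macrophages. Their part in the E14 results and the differences between ages was not tested.

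**Figure D4:**
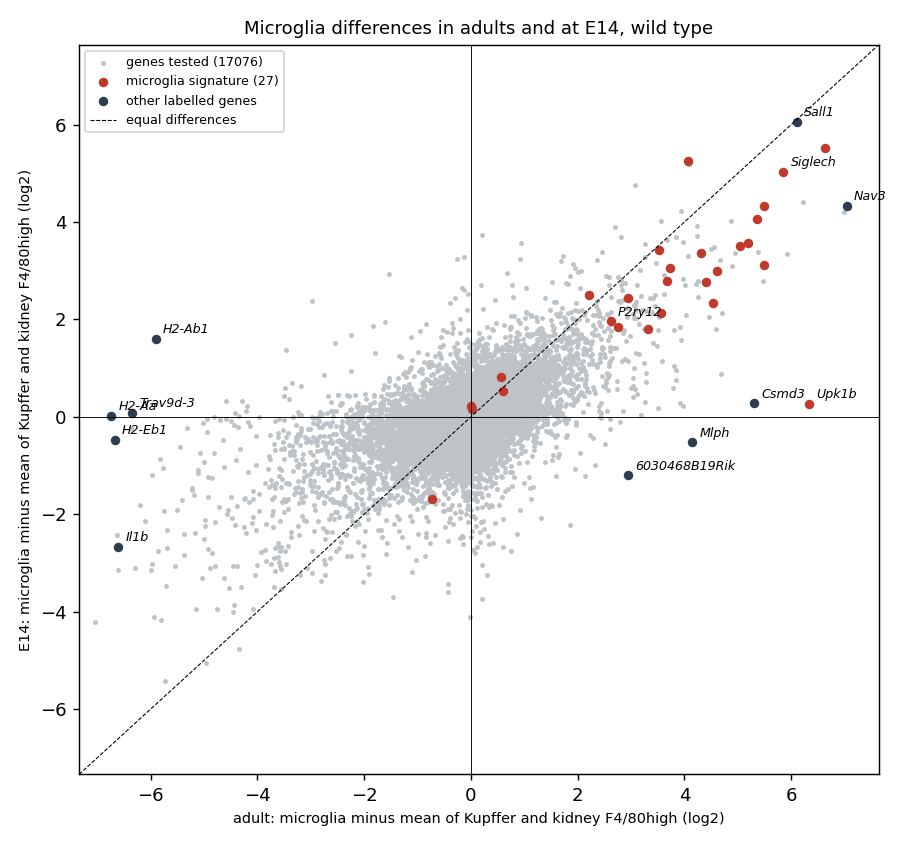
Difference between microglia and the mean of Kupffer cells and kidney F4/80high macrophages in adults (x axis, log2) and at E14 (y axis, log2), wild type, 1 point per gene tested, with the 27 microglia markers in red. Sall1 lies on the diagonal (6.11 and 6.06), whereas Upk1b and Csmd3 lie far right near 0 on the E14 axis and the class II genes far left near or above it.

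The third set of samples was labelled Irf8 knockout. Irf8 itself was at 10.29, 10.65 and 9.98 in microglia labelled knockout, against 9.85, 9.70 and 9.95 in wild-type microglia, so its signal did not fall in microglia labelled knockout. Mean Irf8 signals with the knockout label and in wild type were 8.46 and 9.09 in Kupffer cells and 7.72 and 8.81 in Langerhans cells. In kidney F4/80high macrophages they were 9.76 and 9.60. The sources used here do not say which part of the gene was deleted or where the probe lies. The Irf8 signal therefore neither checks the label nor goes against it. Xist was at 10.56 to 10.73 in the 3 microglia samples labelled knockout and at 9.53 to 9.99 in the 3 Kupffer samples with that label, against 2.71 to 3.88 in wild-type Kupffer cells, so this marker of female cells differed between the labels in Kupffer cells. In Langerhans cells labelled knockout Xist was at 7.695 to 9.685, and Eif2s3y, a Y-linked gene, at 4.865, 4.928 and 7.570. Eif2s3y was at 1.311 to 2.679 in wild-type Langerhans cells, so a marker of sex differed between the labels there too. The part of sex in the genotype results was not tested. In the samples labelled knockout 7388 genes differed (43.3%), 3411 higher (20.0%) and 3977 lower (23.3%) in microglia than in the mean of Kupffer cells, kidney F4/80high macrophages and Langerhans cells. The balance turned with the scaling, to 3990 higher and 3656 lower with quantile normalization and 3998 higher and 3408 lower with arrays centred on their medians. Of the 1535 genes above all 9 others in wild type, 1050 (68.4%) were higher and 45 lower in the samples labelled knockout, and of the 907 below, 709 (78.2%) were lower and 25 higher. The wild-type and knockout-labelled differences correlated at 0.69 across genes. Of the 27 microglia markers 23 were higher and 1 lower in microglia labelled knockout, with a median difference of 1.98, against 4.47 in wild type.

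Whether the microglial difference itself depended on the genotype label was tested as the wild-type difference minus the knockout-labelled one, so a positive value is a larger difference in wild type. It passed in 2619 genes, 1514 above 0 (8.87%) and 1105 below (6.47%), and in 18 of the 27 microglia markers, 17 above 0 and 1 below. Sall1 was at 2.62, 2.96 and 2.91 in microglia labelled knockout, against 9.62, 9.49 and 9.90 in wild-type microglia. Its difference from the other populations was -0.34 with the knockout label and 6.48 in wild type (6.82 ± 0.39 for wild type minus knockout-labelled, adjusted p = 1.32e-22). Sall3 had similar differences (4.62 with the knockout label and 4.58 in wild type). Upk1b was at 1.94, 2.07 and 1.88 in microglia labelled knockout, near its signal at E14, and Adgrg1, at 3.47, 5.13 and 4.18, was below the other populations there (-1.45, against 4.18 in wild type). P3h2, a collagen hydroxylase, was at 2.90, 2.58 and 2.91 in microglia labelled knockout, against 8.32, 8.40 and 8.17 in wild-type microglia. Siglech, Olfml3, Tmem119 and Nav3 had values between -0.00 and 0.43 for wild type minus knockout-labelled, none past the threshold. For P2ry12 the value was 0.67 ± 0.44 (adjusted p = 0.366).

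In the opposite direction, Ms4a7, a membrane protein of macrophages at the borders of the brain and of other organs, was at 10.14, 9.80 and 10.18 in microglia labelled knockout, against 3.13, 2.81 and 2.63 in wild-type microglia (wild type minus knockout-labelled -7.57 ± 0.41, adjusted p = 1.13e-23). Aoah, which inactivates endotoxin, was at 9.18, 9.23 and 9.09 in microglia labelled knockout, against 2.10, 2.70 and 2.08. Apoc1 was at 11.41, 10.56 and 11.33 with the knockout label, and Adgb, an androglobin, at 9.25, 9.20 and 9.02. All 4 were near the floor in wild-type microglia and among the bright genes in microglia labelled knockout. Cxcl2 was at 10.01, 9.34 and 10.19 in microglia labelled knockout, against 3.16, 3.43 and 3.15 in wild-type microglia, and Clec4n at 8.28, 8.69 and 8.47, against 2.52, 2.38 and 2.82. The class II deficit was present with both labels: H2-Aa was at 3.12, 3.92 and 2.25 in microglia labelled knockout, and its difference there was -6.45. Of the 25 interferon-stimulated genes 7 were higher and 7 lower in microglia labelled knockout, where 20.0% and 23.3% of all genes were. In wild type none was higher and 20 were lower (20.5% and 20.7% of all genes). The difference of the differences passed in 19 of the 25, all below 0 (6.47% of all genes). Neutrophil markers averaged 4.85 to 5.94 in microglia labelled knockout, against 3.45 to 6.30 in wild-type microglia, and the border macrophage list, to which Ms4a7 belongs, 6.55 to 6.69 against 3.62 to 4.32. The 18 endothelial markers averaged 6.73 to 7.07 in Kupffer cells labelled knockout, against 4.58, 4.44 and 6.12 in wild-type Kupffer cells, of which replicate 3 stood apart. Of the 24 immediate early genes 2 were higher and 15 lower in microglia labelled knockout (20.0% and 23.3% of all genes), against 13 higher and 9 lower in wild type. For these genes the difference of the differences passed in 18, 14 above 0 and 4 below (8.87% and 6.47% of all genes). Their part in these results was not tested.

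**Figure D5:**
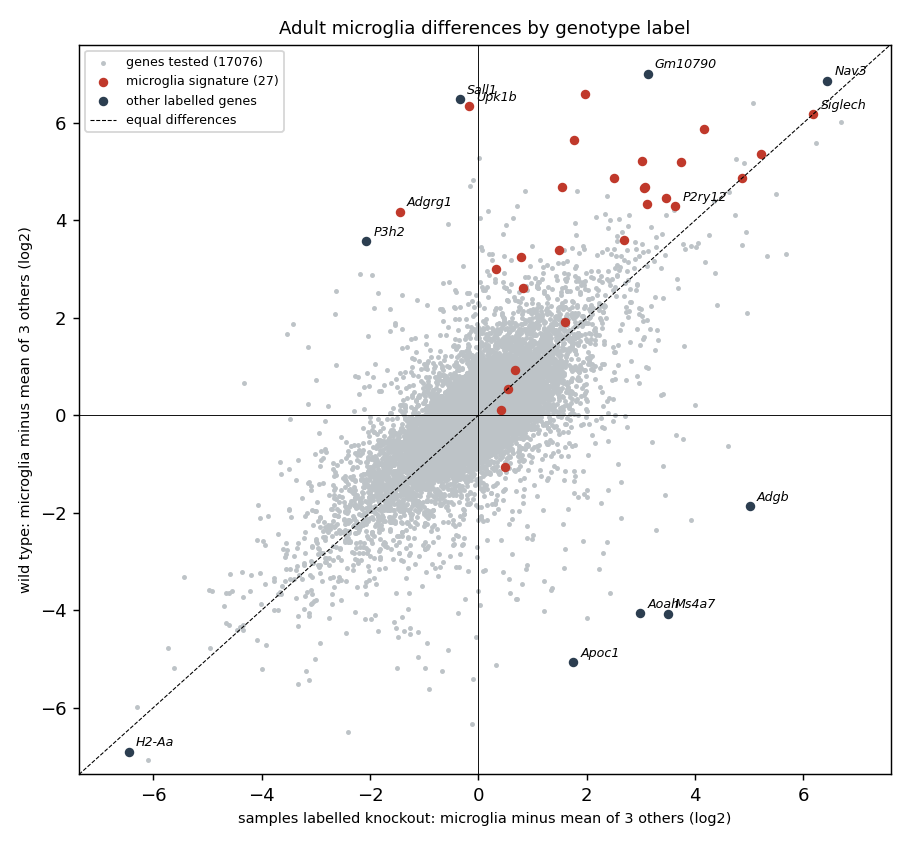
Difference between adult microglia and the mean of the 3 other adult populations in samples labelled Irf8 knockout (x axis, log2) and in wild type (y axis, log2), 1 point per gene tested, with the 27 microglia markers in red. Sall1 and Upk1b lie high near 0 on the knockout-labelled axis, Ms4a7, Aoah, Apoc1 and Adgb lie at the lower right, and Nav3 and Siglech lie close to the diagonal.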

How the data were processed

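RNA of FACS-sorted mouse macrophages was measured on 81 arrays covering 80 samples in 27 groups. A progenitor replicate outside the comparisons had a repeat array, and both were averaged. The deposited values are log2 signals that RMA gave in Expression Console, as the submitters' processing notes name them. Neither versions nor a genome build are stated, and the values were used as deposited. Of 41345 probes, 23521 had exactly 1 gene symbol, 1814 had several and 16010 were not in the probe table. For each of 22180 genes the probe brightest on average was kept, and the 17076 genes above the median of all values (log2 3.04) on at least 2 arrays were tested.

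Group means were estimated for all 27 groups together (limma 3.58.1, R 4.3.3, 53 residual degrees of freedom), so the spread is pooled over groups. Tests were two-sided, with p-values adjusted over all 17076 tested genes by the Benjamini-Hochberg method. On data simulated for the comparison with the 3 other adult populations, limma called 84 of the 100 genes given a change of 1 on the log2 scale, 97 of the 100 given a change of 2, and 6 genes given none. The number of arrays limits the precision. The comparison, the gene lists and the rule for named genes were chosen with earlier results of these data known. The rule named the 15 largest differences in each direction among called genes whose microglia samples lay beyond all 9 others, all microglia markers and P2Y neighbours, up to 4 members of each other list by smallest p, and 4 genes in each direction for each difference of differences. A gene given in addition was chosen after its values were seen. Alternatives covered array weights, a fit restricted to the groups compared, blocking on replicate number, other between-array scaling (quantile or median), the floor on dim genes (none, or the 75th percentile), testing each probe separately, and dropping a population or a sample. List counts without single samples or a population were added after seeing the data. Promoter sequences are from RefSeq (GRCm38.p6), and all 5 genes shown were matched.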

Additional observations from a re-analysis of the deposited data

Results flagged for a closer look

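Effects that differed between stages were found in 2526 genes when the adult difference between microglia and Kupffer and kidney cells was set against the E14 one (limma, Benjamini-Hochberg adjusted). The 4 with the largest positive values, adult minus E14, were Upk1b (6.06), Csmd3 (5.02), Mlph (4.68) and 6030468B19Rik (4.13), the last a transcript at 5.67 to 5.91 in adult microglia and 3.39 to 4.34 in E14 microglia. The 4 with the largest negative values were H2-Ab1 (-7.51), H2-Aa (-6.76), Trav9d-3 (-6.44) and H2-Eb1 (-6.20). Trav9d-3, a T cell receptor segment, was at 2.27 to 2.54 in adult microglia, against 8.43 to 9.90 in Kupffer cells and 8.47 to 8.61 in kidney F4/80high macrophages, where T and NK cell markers were also higher. The part of those cells was not tested.

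Effects that differed between genotype labels were found in 2619 genes, given as wild type minus knockout-labelled. The largest positive values were those of Sall1 (6.82), Upk1b (6.52), P3h2 (5.65) and Adgrg1 (5.63), and the largest negative ones those of Ms4a7 (-7.57), Aoah (-7.05), Adgb (-6.88) and Apoc1 (-6.81). All 16 were picked from the genes that passed the test of the difference itself, so that they passed is no further result. No formal outlier test was applied, since the groups compared hold 3 samples or fewer.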

How the results depend on the processing

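All 8 comparisons kept their counts of called genes within 1.5 times under every alternative, and so did the count of genes beyond all 9 others. Leaving out 1 sample at a time gave 5899 to 7015 called genes in the comparison with the 3 other adult populations, against 7036 with all samples. Leaving out Kupffer cells, kidney F4/80high macrophages or Langerhans cells from the mean gave 6872, 7619 and 6088. Of 3664 values of named genes under the alternatives, 3647 stayed on the same side of the threshold and none changed direction. Most named genes were chosen for large differences or small p-values in these data, so their stability does not extend to other called genes. Calls were lost under some alternatives for Map2, Mag, Mbp and Mobp, which are neuron and oligodendrocyte genes with low signal. Differences of Ngp, S100a8 and Birc5 moved by more than 1.5 times when 1 microglia sample was left out: Ngp to 1.91 and S100a8 to 2.53 without replicate 2, and Birc5 to -0.82 without replicate 1. Median centring moved the median difference to 0.085, against -0.016 as deposited.

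Replicate numbers 1 to 3 are shared by the groups, and the labels give them no meaning. Deviations of same-numbered samples correlated at -0.040 to 0.029 in the 4 adult wild-type groups, against -0.042 to 0.052 for different numbers. With 3 samples per group, these values cannot settle whether same-numbered samples share an origin. With the replicate number as a block 7051 genes were called.

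Dim genes near the floor limit small differences in microglia. Organ, isolation and, for Langerhans cells, GFP labelling go together with population and cannot be told apart. Some probes have no gene in the table and were not analysed here.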
